A study of Homo sapiens with 32 samples.

Results

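The dual-specificity MAP kinase phosphatases are enzymes that remove phosphate from both the threonine and the tyrosine of an active MAP kinase. The 10 members described here are DUSP1, DUSP2, DUSP4, DUSP5, DUSP6, DUSP7, DUSP8, DUSP10, DUSP14, and DUSP16, taken by gene symbol from the 25498 genes of the deposited tables. All 10 passed the filter on low counts, as did 16995 genes in all. The cells were LNCaP, a single androgen-responsive human prostate cancer line that came from a lymph node metastasis. RNA-Seq of polyA RNA was available for 32 libraries in 8 groups of 4. One group was grown in medium with FBS and another with serum that charcoal had stripped of steroids (CSS). The other 6 groups were in CSS and received EGF or NRG-1 at 100 ng/ml for 5 minutes, 1 hour, or 4 hours, so that the CSS group was the control of every ligand group. Each group held replicates 1 and 2 of batch 1 and replicates 1 and 2 of batch 2, which the labels call biological replicates without saying how the cultures were separated, so the P values measure only the spread between these samples.

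EGF binds EGFR and NRG-1 binds ERBB3 and ERBB4, and both ligands lead through RAS and RAF to the ERK MAP kinases. Active ERK turns on transcription of several of its own phosphatases, which then remove its phosphates, so that these genes are classical markers of negative feedback. DUSP1, DUSP2, DUSP4, and DUSP5 encode nuclear, inducible enzymes. DUSP6 and DUSP7 encode cytoplasmic enzymes that prefer ERK, DUSP8, DUSP10, and DUSP16 encode enzymes that prefer JNK and p38, and DUSP14 encodes a small atypical enzyme without the kinase-binding domain of the others.

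The libraries held between 63822654 and 92401724 expected counts, with a median of 77866194. All 8 luminal prostate markers checked were above 1 TPM in every library, and of the basal markers KRT5 and TP63 did not exceed 0.03 TPM, whereas KRT14 reached 2.17 TPM. Among markers of other cell types, COL1A1 (1.36 to 5 TPM), CD68 (2.24 to 16.2 TPM), and VWF (0.7 to 3.1 TPM) were detected in every library, and the other 8 fibroblast, leukocyte, and endothelial markers did not exceed 0.31 TPM. The lowest count of a member in any library was 17, for DUSP6, and the next lowest was 107, for DUSP5. DUSP6 had no more than 75 counts in any library of FBS, CSS, or 5 minutes of ligand, so that counting error was appreciable for it in those groups. In these bulk libraries, fewer cells carrying a transcript and less transcript per cell cannot be told apart.

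Promoters of 8 of the 10 members, 9 promoters in all because DUSP10 had 2, were matched in a RefSeq table of build GRCh38.p14. The 250 bases before the start are printed for 4 members whose responses differed in course. DUSP1 changed little at the times sampled, DUSP2 rose and fell back, and DUSP6 had the largest fold change. DUSP8 rose at 1 hour and was back near its control level at 4 hours. In that order the stretches lie at chr5:172771196-172771445, chr2:96145441-96145690, chr12:89352502-89352751, and chr11:1572272-1572521, each on the minus strand, directly upstream of the gene. Capitals mark the cyclic AMP response element TGACGTCA, the SP1 site GGGCGG, and the TATA box TATAAA, each searched on both strands.
DUSP1: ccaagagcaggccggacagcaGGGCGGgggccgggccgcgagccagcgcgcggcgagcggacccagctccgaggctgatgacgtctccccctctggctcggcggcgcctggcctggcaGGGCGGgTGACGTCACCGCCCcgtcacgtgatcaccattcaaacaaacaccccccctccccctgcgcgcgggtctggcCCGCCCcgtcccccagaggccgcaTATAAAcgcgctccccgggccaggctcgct
DUSP2: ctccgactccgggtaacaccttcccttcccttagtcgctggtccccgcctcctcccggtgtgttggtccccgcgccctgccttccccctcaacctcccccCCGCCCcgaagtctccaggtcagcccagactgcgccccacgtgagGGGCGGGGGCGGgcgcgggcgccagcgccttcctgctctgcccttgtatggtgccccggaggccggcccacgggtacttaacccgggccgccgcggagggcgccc
DUSP6: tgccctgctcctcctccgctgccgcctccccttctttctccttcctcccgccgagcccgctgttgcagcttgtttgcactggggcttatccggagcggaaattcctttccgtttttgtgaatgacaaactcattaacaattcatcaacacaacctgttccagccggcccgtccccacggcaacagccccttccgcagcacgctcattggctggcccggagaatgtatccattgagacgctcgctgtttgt
DUSP8: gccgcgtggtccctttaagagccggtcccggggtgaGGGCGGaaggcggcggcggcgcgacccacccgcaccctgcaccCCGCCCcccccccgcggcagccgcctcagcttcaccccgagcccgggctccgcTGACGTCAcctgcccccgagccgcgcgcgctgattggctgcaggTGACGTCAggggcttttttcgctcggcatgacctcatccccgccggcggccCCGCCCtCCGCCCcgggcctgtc
The cyclic AMP response element occurred once in the DUSP1 promoter, 117 bases from the start, and at 110 and 66 bases from the start in the DUSP8 promoter, against 1.65% of the 35116 promoters in the table that held at least 1. A TATA box stood 24 bases from the DUSP1 start and in none of the other 8 member promoters, against 10.72% of all promoters. The SP1 site was in 8 of the 9 member promoters, the exception being DUSP6, and in 42.64% of all promoters. GC content was 57.2% in the DUSP6 promoter and 74.0% to 76.8% in the other 3 printed, against a median of 58.0% over all promoters. The AP-1 site (TGACTCA or TGAGTCA), the ETS site CCGGAAG, and the CArG box were in 0 of the 9 member promoters and in 4.2%, 8.52%, and 1.16% of all promoters. These matches describe the letters in the window and nothing about binding.

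In CSS, the members spanned a wide range of transcript per length. DUSP14 stood highest at 38.3 ± 1.27 TPM (SD, n = 4), followed by DUSP16 at 35.8 ± 3.61, DUSP8 at 23.7 ± 3.03, and DUSP1 at 17.6 ± 0.820. DUSP7 at 10.7 ± 1.25 TPM, DUSP2 at 8.5 ± 0.672, and DUSP10 at 7.81 ± 1.32 formed a middle set, and DUSP4 at 3.65 ± 1.19, DUSP5 at 1.58 ± 0.0956, and DUSP6 at 0.385 ± 0.0265 were lowest. The libraries of DUSP14 and DUSP16 overlapped, as did those of DUSP7 and DUSP2 and those of DUSP2 and DUSP10. The other neighbors in this order did not overlap.

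**Figure D1:**
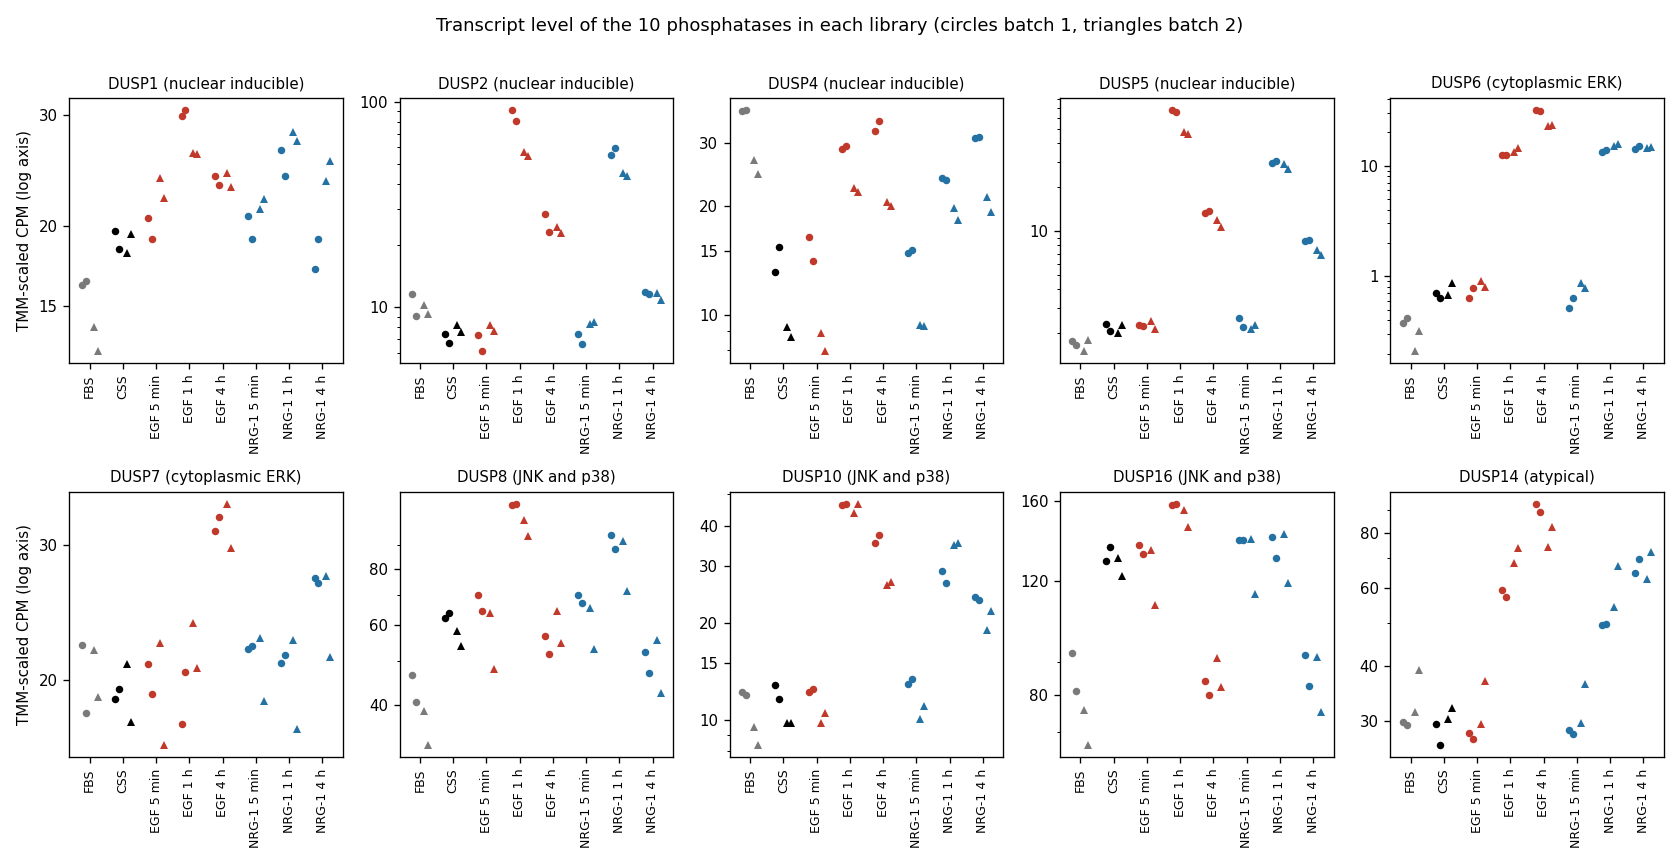
TMM-scaled CPM of each member (log axis) in the 32 libraries, by group, with circles for batch 1 and triangles for batch 2, black for CSS, gray for FBS, red for EGF, and blue for NRG-1. DUSP5 went from 2.00 to 2.32 CPM in CSS to 46.1 to 67.3 CPM after 1 hour of EGF, whereas DUSP6 was highest after 4 hours of EGF, at 22.9 to 31.7 CPM.

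Levels of 1 gene across groups are given below as CPM, the share of a library's counts after TMM scaling of the totals, in the order batch 1 replicates 1 and 2, then batch 2 replicates 1 and 2. Fold changes come from the quasi-likelihood test of edgeR with a batch term over all 32 libraries, with SE, and the Benjamini-Hochberg adjustment of P values ran over all 16995 genes. A gene is said to have risen or fallen when the adjusted P value was below 0.05, and to be a differentially expressed gene (DEG) when its log2 fold change was also beyond 1.

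Among the nuclear enzymes, DUSP5 and DUSP2 rose early and had fallen back by 4 hours. DUSP5, a nuclear phosphatase that acts on ERK alone, had 2.32, 2.09, 2.00, and 2.30 CPM in CSS. After 1 hour it had 67.3, 65.9, 48.2, and 46.1 CPM with EGF, and 29.5, 30.3, 29.0, and 26.8 CPM with NRG-1. Every ligand library was far above the CSS libraries, and every EGF library was above every NRG-1 library. After 4 hours DUSP5 had 13.3, 13.8, 12.0, and 10.8 CPM with EGF, and 8.53, 8.70, 7.39, and 6.92 CPM with NRG-1. These values lay between those of CSS and of 1 hour, without overlap. The log2 fold change against CSS was 4.69 ± 0.09 for 1 hour of EGF (25.8-fold, adjusted P = 4.73e-25), 3.73 ± 0.09 for 1 hour of NRG-1 (13.2-fold, adjusted P = 8.05e-23), 2.51 ± 0.09 for 4 hours of EGF (adjusted P = 2.6e-19), and 1.85 ± 0.09 for 4 hours of NRG-1 (adjusted P = 4.04e-16). In FBS, DUSP5 had 1.79, 1.66, 1.52, and 1.80 CPM, all below the CSS libraries (log2 fold change −0.37 ± 0.10, adjusted P = 0.00227).

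DUSP2, an early response phosphatase of the nucleus, had 7.42, 6.67, 8.20, and 7.56 CPM in CSS. After 1 hour it had 90.8, 80.3, 56.98, and 54.3 CPM with EGF, and 55.2, 59.6, 45.1, and 43.8 CPM with NRG-1. All 8 libraries were above CSS, the batch 1 libraries were the higher ones with either ligand, and the EGF and NRG-1 ranges overlapped. After 4 hours DUSP2 had 28.6, 23.2, 24.7, and 22.9 CPM with EGF, and 11.9, 11.6, 11.8, and 10.9 CPM with NRG-1. Every EGF library was above every NRG-1 library, and both sets were above CSS. The log2 fold change against CSS was 3.23 ± 0.14 at 1 hour and 1.73 ± 0.13 at 4 hours with EGF (adjusted P = 4.59e-17 and 9.63e-12), and 2.76 ± 0.14 and 0.62 ± 0.13 with NRG-1 (adjusted P = 2.29e-15 and 0.000379). In batch 1 alone the 1 hour values were 3.61 with EGF and 3.03 with NRG-1, and in batch 2 alone they were 2.83 and 2.49. DUSP2 also rose in FBS, where it had 11.7, 9.05, 10.2, and 9.31 CPM (log2 fold change 0.43 ± 0.13, adjusted P = 0.00872), a call lost on log2(TPM + 1) values tested with limma (0.21, adjusted P = 0.22).

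DUSP4, a nuclear phosphatase of ERK and JNK, rose less and did not fall back. It had 13.2, 15.4, 9.27, and 8.65 CPM in CSS, 28.9, 29.4, 22.5, and 21.9 CPM after 1 hour of EGF, and 32.5, 34.6, 20.5, and 20.0 CPM after 4 hours of EGF. With NRG-1 it had 23.9, 23.7, 19.8, and 18.3 CPM at 1 hour and 31.0, 31.3, 21.3, and 19.3 CPM at 4 hours. Batch 1 was above batch 2 in every group, and every ligand library at 1 or 4 hours was above every CSS library. The log2 fold changes were 1.17 ± 0.08, 1.21 ± 0.08, 0.92 ± 0.08, and 1.15 ± 0.08 for EGF at 1 and 4 hours and NRG-1 at 1 and 4 hours (adjusted P = 5.04e-12, 7.14e-13, 1.66e-09, and 3.13e-12). DUSP4 was highest in FBS, at 36.8, 37.0, 26.8, and 24.6 CPM, where its log2 fold change against CSS was 1.44 ± 0.08 (2.72-fold, adjusted P = 1.6e-14).

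DUSP1, the founding MAP kinase phosphatase and an early response gene in many cell types, changed little. It had 19.7, 18.4, 18.2, and 19.5 CPM in CSS, 29.9, 30.5, 26.1, and 26.0 CPM after 1 hour of EGF, and 26.4, 24.0, 28.1, and 27.2 CPM after 1 hour of NRG-1. These 8 ligand libraries were all above CSS, and the log2 fold change was 0.57 ± 0.09 for EGF and 0.48 ± 0.09 for NRG-1 (adjusted P = 5.02e-05 and 0.00077). At 4 hours DUSP1 stood at 24.0, 23.2, 24.3, and 23.1 CPM with EGF (0.32 ± 0.09, adjusted P = 0.0056) and at 17.2, 19.1, 23.6, and 25.4 CPM with NRG-1 (0.16 ± 0.09, adjusted P = 0.168). On log2 TPM values tested with limma, the call at 4 hours of EGF was lost (0.24 to 0.25, adjusted P = 0.102 to 0.137), as was that at 1 hour of NRG-1 in 2 of 3 forms (adjusted P = 0.0521 and 0.074). With NRG-1 the batch 1 libraries lay within or below the CSS range and the batch 2 libraries above it (−0.078 and 0.39 in each batch alone, adjusted P = 0.419 and 0.00681). Without NRG-1 4 hours batch 1 replicate 1 the adjusted P value was 0.0306. In FBS, DUSP1 had 16.2, 16.4, 13.9, and 12.8 CPM, all below CSS (−0.35 ± 0.09, adjusted P = 0.00268).

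Of the cytoplasmic ERK phosphatases, DUSP6 had the largest fold change of any member, at 4 hours of EGF, and DUSP7 a late, small rise. DUSP6 encodes MKP-3, a standard readout of ERK activity. It had 0.702, 0.630, 0.675, and 0.862 CPM in CSS. At 1 hour it had 12.5, 12.5, 13.2, and 14.4 CPM with EGF, and 13.4, 13.8, 15.1, and 15.7 CPM with NRG-1. The ligands overlapped and both were far above CSS. At 4 hours the values were 31.7, 30.9, 22.9, and 23.5 CPM with EGF, and 14.0, 15.0, 14.4, and 14.7 CPM with NRG-1. Every EGF library was then above its own 1 hour range, whereas the NRG-1 libraries lay within theirs. The log2 fold change against CSS was 4.19 ± 0.14 at 1 hour and 5.24 ± 0.14 at 4 hours with EGF (18.3-fold and 37.9-fold, adjusted P = 1.31e-19 and 1.08e-21), and 4.33 ± 0.14 at both times with NRG-1 (20.1-fold and 20.2-fold, adjusted P = 1.08e-19 and 1.09e-19). These folds stand on 0.630 to 0.862 CPM in CSS. At 1 hour of EGF the fold of DUSP5 was larger (25.8-fold). Over the alternative fits the DUSP6 value was 2.56 to 4.29 at 1 hour and 3.40 to 5.54 at 4 hours of EGF. That of DUSP5 at 1 hour of EGF was 4.05 to 4.92.

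DUSP6 was lower in FBS than in CSS, at 0.382, 0.419, 0.212, and 0.319 CPM, and the groups did not overlap. The log2 fold change was −1.11 ± 0.20 (adjusted P = 3.7e-05). It was −0.74 in batch 1 alone and −1.55 in batch 2 alone (adjusted P = 0.00377 and 0.000189), and without FBS batch 2 replicate 1 it was −0.92, inside the fold limit of a DEG. Over all 20 alternative fits it was −1.55 to −0.25, each with an adjusted P value below 0.05.

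DUSP7 had 18.9, 19.5, 21.0, and 17.6 CPM in CSS, 17.6, 20.5, 23.7, and 20.8 CPM after 1 hour of EGF, and 31.2, 32.6, 33.9, and 29.7 CPM after 4 hours of EGF. With NRG-1 it had 21.1, 21.6, 22.6, and 17.3 CPM at 1 hour and 27.1, 26.8, 27.3, and 21.4 CPM at 4 hours. The 1 hour libraries overlapped CSS with either ligand (0.10 ± 0.10 for both, adjusted P = 0.691 and 0.702), and the 4 hour libraries did not. The rise at 4 hours was 0.73 ± 0.10 with EGF (adjusted P = 7.38e-07) and 0.42 ± 0.10 with NRG-1 (adjusted P = 0.00142). The NRG-1 value was not called in batch 2 alone (0.35, adjusted P = 0.264) or on log2(TPM + 1) values (0.29, adjusted P = 0.139).

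Of the JNK and p38 phosphatases, DUSP10 rose at both times, DUSP8 at 1 hour, and DUSP16 was lower at 4 hours. DUSP10, also called MKP-5, had 12.9, 11.6, 9.78, and 9.81 CPM in CSS. It had 46.2, 46.6, 43.6, and 46.6 CPM at 1 hour and 35.2, 37.3, 26.3, and 26.8 CPM at 4 hours with EGF. With NRG-1 it had 28.9, 26.6, 34.9, and 35.4 CPM at 1 hour and 24.1, 23.6, 19.0, and 21.8 CPM at 4 hours. All 16 of these libraries were above CSS, and the EGF libraries were above the NRG-1 libraries at either time. The log2 fold changes were 2.06 ± 0.11 and 1.51 ± 0.11 with EGF (adjusted P = 4.09e-15 and 1.37e-12) and 1.54 ± 0.11 and 1.01 ± 0.11 with NRG-1 (adjusted P = 4.92e-12 and 6.59e-09).

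DUSP8 had 62.4, 63.95, 58.4, and 54.1 CPM in CSS, 110.7, 111.0, 102.4, and 94.5 CPM after 1 hour of EGF, and 94.9, 88.3, 92.2, and 71.6 CPM after 1 hour of NRG-1. All of these ligand libraries were above CSS (0.81 ± 0.10 and 0.54 ± 0.10, adjusted P = 6.69e-07 and 0.00051). At 4 hours DUSP8 had 56.97, 51.9, 64.5, and 55.0 CPM with EGF (−0.06 ± 0.10, adjusted P = 0.68) and 52.5, 47.0, 55.7, and 42.7 CPM with NRG-1 (−0.27 ± 0.10, adjusted P = 0.0349). In batch 1 alone DUSP8 was lower with EGF (−0.22, adjusted P = 0.0253), and in batch 2 alone it was at 0.11 (adjusted P = 0.751). Both sets overlapped CSS, and the NRG-1 call was lost without any of 6 single libraries, with adjusted P values of up to 0.123. It was also lost in batch 2 alone (−0.18, adjusted P = 0.621). It held in batch 1 alone (−0.35, adjusted P = 0.00147). It held as well with a replicate block, which pairs libraries of the same batch and replicate number (−0.28, adjusted P = 0.00081). Within such pairs DUSP8 was below CSS with NRG-1 in 4 of 4. The NRG-1 rise at 1 hour was not called in batch 2 alone (0.54, adjusted P = 0.341). In FBS, DUSP8 was lower than in CSS in every library, at 46.7, 40.7, 38.9, and 32.7 CPM (−0.59 ± 0.10, adjusted P = 2.02e-05).

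DUSP16, also called MKP-7, had 129.1, 135.6, 130.4, and 122.3 CPM in CSS and fell with either ligand by 4 hours. It had 83.9, 79.95, 91.3, and 82.2 CPM with EGF, and 92.1, 82.6, 91.7, and 75.2 CPM with NRG-1. These 8 libraries were all below CSS (−0.61 ± 0.08 and −0.60 ± 0.08, adjusted P = 2.07e-07 and 4.43e-07). It was also below CSS in FBS, at 93.0, 81.2, 75.6, and 66.9 CPM (−0.71 ± 0.08, adjusted P = 1.74e-08), where the libraries overlapped those of 4 hours of either ligand. At 1 hour DUSP16 had 157.3, 158.0, 154.5, and 145.4 CPM with EGF (0.25 ± 0.08, adjusted P = 0.0432) and 140.4, 130.3, 142.1, and 119.4 CPM with NRG-1 (0.04 ± 0.08, adjusted P = 0.859). The EGF libraries were above CSS and the NRG-1 libraries overlapped it. The EGF call was lost without any single library of the 8, with adjusted P values from 0.0526 to 0.127. It was also lost in batch 2 alone (0.25, adjusted P = 0.747) and with limma on log2(TPM + 1) values (0.28, adjusted P = 0.319). It held in batch 1 alone (0.26, adjusted P = 0.0261) and with a replicate block (0.25, adjusted P = 0.00116). Within pairs of the same batch and replicate number, DUSP16 was above CSS in 4 of 4.

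DUSP14, the atypical member, had 29.5, 26.6, 30.3, and 32.2 CPM in CSS and rose with time. With EGF it had 59.4, 57.3, 68.4, and 74.0 CPM at 1 hour and 92.8, 89.0, 74.2, and 82.6 CPM at 4 hours. With NRG-1 it had 49.5, 49.8, 54.2, and 67.3 CPM at 1 hour and 64.7, 69.7, 62.9, and 72.5 CPM at 4 hours. All of these libraries were above CSS, by 1.12 ± 0.10 and 1.52 ± 0.10 on the log2 scale for EGF (adjusted P = 4.87e-10 and 2.1e-13) and 0.89 ± 0.10 and 1.19 ± 0.10 for NRG-1 (adjusted P = 8.01e-08 and 5.39e-11). In FBS it had 29.9, 29.4, 31.5, and 39.2 CPM, which overlapped CSS (0.13 ± 0.10, adjusted P = 0.274).

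**Figure D2:**
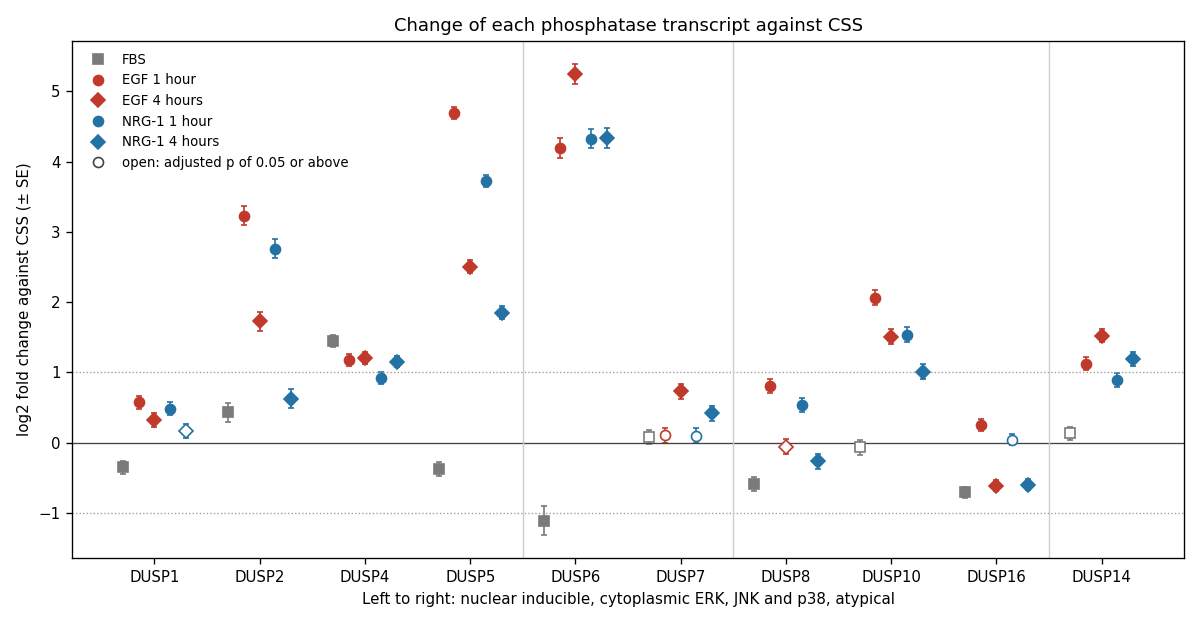
Log2 fold change of each member against CSS (points, with SE bars) for FBS and for 1 and 4 hours of each ligand, with open symbols for an adjusted P value of 0.05 or above and dotted lines at the fold limit of a DEG. DUSP6 with 4 hours of EGF is the highest point, at 5.24, and DUSP6 in FBS the lowest, at −1.11.

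The first comparison asked which members respond to a ligand within 5 minutes. No member was a DEG in EGF against CSS, in NRG-1 against CSS, or in EGF against NRG-1 at this time by edgeR or DESeq2, and 0 of the 10 had an unadjusted P value below 0.05 in edgeR. Over all genes tested, 0.00588%, 0%, and 0% were DEGs in these comparisons, and 251, 324, and 184 genes had an unadjusted P value below 0.05. The largest difference of a member from CSS was in DUSP1, at 0.18 ± 0.09 with EGF (adjusted P = 1), whose CSS and EGF libraries overlapped. Within pairs of the same batch and replicate number DUSP1 was above CSS in 4 of 4 with EGF and in 4 of 4 with NRG-1. DUSP7 and DUSP10 were also above CSS in 4 of 4 with NRG-1. The ligands share the CSS libraries, and the share of all genes with 4 of 4 was not counted. With the replicate block the DUSP1 values were 0.18 ± 0.09 (adjusted P = 1) and 0.13 ± 0.09 (adjusted P = 0.95). With the block 1 member, DUSP7 with NRG-1, had an unadjusted P value below 0.05, and its adjusted P value was 0.95.

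After 1 hour of EGF, 6 of the 10 members were higher DEGs (DUSP2, DUSP4, DUSP5, DUSP6, DUSP10, and DUSP14), against 1.46% of all genes tested. All members but DUSP7 rose, 9 of 10, against 6.00% of genes, and 0 members fell. The median log2 fold change was 1.15 over the members and −0.01 over all genes tested. After 1 hour of NRG-1, 4 members were higher DEGs (DUSP2, DUSP5, DUSP6, and DUSP10), against 0.806% of genes, and 8 rose, against 4.45%, with a median of 0.91 over the members. Each batch alone gave 6 DEGs with EGF. With NRG-1, batch 1 alone gave 4 and batch 2 alone gave 5. The members were chosen with earlier results of these data known. Their shares beside those of all genes, here and below, therefore describe these genes and test nothing. Of 14 further dual-specificity family genes tested, 1 was a higher DEG with 1 hour of EGF and 0 with 1 hour of NRG-1.

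At 4 hours the members' counts stood against a much broader change of the transcriptome. With EGF, 6 members were again higher DEGs, and they were the same 6 genes, against 5.86% of genes. There were 8 that rose, against 24.6%, and 1, DUSP16, that fell, against 24.6%. With NRG-1, 5 members were higher DEGs (DUSP4, DUSP5, DUSP6, DUSP10, and DUSP14), against 4.87% of genes, 7 rose, against 21.6%, and 2 fell (DUSP8 and DUSP16), against 21.0%. The member medians were 1.36 with EGF and 0.81 with NRG-1, and those of all genes tested were −0.02 and −0.01. Each batch alone gave 6 DEGs with EGF, and 4 and 5 with NRG-1, where DUSP10 had 0.96 in batch 1. DUSP10 with NRG-1 stood at the fold limit, and it was between 0.97 and 1.00 and no DEG without NRG-1 batch 1 replicate 1, NRG-1 batch 2 replicate 2, CSS batch 1 replicate 2, CSS batch 2 replicate 1, or CSS batch 2 replicate 2. The summed level of the 4 leukocyte markers moved with these 2 groups, from 3.38 to 4.06 TPM in CSS to 12.3 to 16.3 TPM with EGF and 6.64 to 11.0 TPM with NRG-1. CD68 was the marker above 1 TPM, whereas PTPRC, CD3E, and CD79A did not exceed 0.28 TPM in any library. The endothelial sum, nearly all VWF, moved the other way, from 1.8 to 2.55 TPM in CSS to 0.71 to 1.28 TPM with EGF and 0.86 to 1.49 TPM with NRG-1. The luminal sum was 3112 to 3522 TPM in CSS, 3936 to 4459 TPM with EGF, and 3198 to 4392 TPM with NRG-1. The part of these markers in the results was not tested.

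Cells grown in FBS were compared with those in CSS to ask whether members that moved with a ligand also differed between the sera. The labels give no exposure time for FBS, whereas the ligands acted for 5 minutes to 4 hours. A brief response to serum could not be seen in this design. In FBS, 1 member was a higher DEG, DUSP4, against 4.91% of genes, and 1 a lower DEG, DUSP6, against 3.80%. Only DUSP2 and DUSP4 rose, 2 of 10, against 26.0%, and 5 fell (DUSP1, DUSP5, DUSP6, DUSP8, and DUSP16), against 26.8%. The member median was −0.21, against −0.01 over all genes. Batch 1 alone gave 1 DEG, DUSP4, and batch 2 alone gave both. The basal marker KRT14 moved with FBS, where the 3 basal markers summed to 0.84 to 2.17 TPM against 0.05 to 0.26 TPM in CSS. The fibroblast sum was 1.51 to 2.67 TPM in FBS against 2.85 to 4.35 TPM in CSS, and the leukocyte sum 2.4 to 3.23 against 3.38 to 4.06 TPM. The luminal sum was 3861 to 5585 TPM in FBS against 3112 to 3522 TPM in CSS. The part of these markers was not tested. The FBS and ligand comparisons share the CSS libraries, so their values are set side by side without a test of likeness. DUSP1, DUSP5, DUSP6, and DUSP8, which rose with 1 hour of either ligand, were lower in FBS, DUSP16 was lower in FBS and at 4 hours of either ligand, and DUSP2 and DUSP4 were higher in all of them.

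The direct comparison of the ligand groups with FBS gave 5 higher DEGs for 1 hour of EGF (DUSP2, DUSP5, DUSP6, DUSP8, and DUSP10), against 5.35% of genes. It gave the same 5 genes for 1 hour of NRG-1, against 4.33%. For 4 hours of EGF there were 5 (DUSP2, DUSP5, DUSP6, DUSP10, and DUSP14), against 8.24%, and for 4 hours of NRG-1 there were 4, with DUSP2 no longer among them, against 7.46%. The largest difference was in DUSP6 after 4 hours of EGF, 6.35 ± 0.16 (81.9-fold, adjusted P = 8.17e-23). The ligand groups were in CSS and had a set exposure time, which FBS had not, so these comparisons change serum, ligand, and exposure together. DUSP6 was itself lower in FBS than in CSS (−1.11 ± 0.20), as was DUSP8 (−0.59 ± 0.10). Against CSS, DUSP8 was no DEG at 1 hour of EGF or NRG-1 (0.81 ± 0.10 and 0.54 ± 0.10). DUSP4 was lower than in FBS in all 4 comparisons, from −0.53 ± 0.08 with 1 hour of NRG-1 (adjusted P = 3.17e-06) to −0.24 ± 0.08 with 4 hours of EGF (adjusted P = 0.0119). Batch 1 alone gave 5, 5, 5, and 3 DEGs in these comparisons, and batch 2 alone 7, 6, 5, and 3. In the 1 hour EGF comparison DUSP14 (0.99) and DUSP16 (0.96) were near the fold limit, and leaving out FBS batch 1 replicate 1 added DUSP16 to the DEGs, whereas leaving out FBS batch 2 replicate 2 or EGF batch 1 replicate 1 or 2 added DUSP14.

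EGF and NRG-1 were then compared at the same time of exposure. At 1 hour, 0 members were DEGs by edgeR or DESeq2, against 0.171% of genes that were higher DEGs with EGF. DUSP5 (0.97 ± 0.08, 1.95-fold, adjusted P = 2.25e-09) and DUSP10 (0.53 ± 0.10, 1.44-fold, adjusted P = 0.00315) were higher with EGF, 2 of 10, against 0.941% of genes. Within pairs of the same batch and replicate number, DUSP2, DUSP4, DUSP5, DUSP8, DUSP10, DUSP14, and DUSP16 were higher with EGF in 4 of 4, and DUSP6 was lower in 4 of 4. How many of all genes went one way in 4 of 4 pairs was not counted. An unadjusted P value below 0.05 was found for 7 members, and for 1397 of the 16995 genes tested. The DUSP5 value was 1.16 in batch 1 alone and 0.76 in batch 2 alone (adjusted P = 1.82e-08 and 0.0305), and it passed the fold limit of a DEG in batch 1 alone and when EGF batch 2 replicate 1, EGF batch 2 replicate 2, or NRG-1 batch 2 replicate 1 was left out (1.01, 1.03, and 1.00). The DUSP10 value was 0.75 in batch 1 alone and 0.37 in batch 2 alone (adjusted P = 2.35e-06 and 0.653). With a replicate block, which pairs libraries of the same batch and replicate number, DUSP2 (0.46, adjusted P = 0.0171), DUSP8 (0.28, adjusted P = 0.0138), and DUSP16 (0.21, adjusted P = 0.0266) passed as well. DUSP2 also passed under DESeq2 (0.47, adjusted P = 0.0251), in batch 1 alone (0.58, adjusted P = 0.00925), and without NRG-1 batch 1 replicate 2, EGF batch 2 replicate 1, or EGF batch 2 replicate 2 (adjusted P = 0.0462, 0.0316, and 0.0178), and DUSP14 with limma on log2(TPM + 1) (0.34, adjusted P = 0.00113). DUSP6 was at −0.14 ± 0.11 (adjusted P = 0.621).

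At 4 hours, DUSP2 was a higher DEG with EGF (1.11 ± 0.13, 2.15-fold, adjusted P = 6.5e-06), 1 of 10 members, against 0.147% of genes. DUSP6 (0.91 ± 0.11, 1.88-fold, adjusted P = 7.39e-06), DUSP5 (0.66 ± 0.08, 1.58-fold, adjusted P = 8.41e-06), and DUSP10 (0.50 ± 0.10, 1.41-fold, adjusted P = 0.00792) were also higher, so that 4 of 10 rose, against 1.25% of genes. The libraries of the 2 ligands did not overlap for any of these 4 genes. They did not overlap either for DUSP7 (0.31 ± 0.10, adjusted P = 0.143) and DUSP14 (0.33 ± 0.10, adjusted P = 0.08), which did not pass. The share of all genes without overlap was not counted. In batch 1 alone the values were 1.14 for DUSP2, 1.11 for DUSP6, 0.65 for DUSP5, and 0.61 for DUSP10, all called. In batch 2 alone they were 1.08, 0.69, 0.68, and 0.39, and DUSP2 was called there (adjusted P = 0.00111, 0.128, 0.0764, and 0.429). Without EGF 4 hours batch 1 replicate 2, DUSP10 had an adjusted P value of 0.0528. With a replicate block, DUSP7 (0.31, adjusted P = 0.00384) and DUSP14 (0.33, adjusted P = 0.00548) passed too. DUSP14 also passed under DESeq2 (0.34, adjusted P = 0.029) and with limma on log2 TPM values (0.35, adjusted P = 0.00126 to 0.00202). It passed in batch 1 alone (0.44, adjusted P = 0.000547) and without EGF 4 hours batch 2 replicate 1 (0.42, adjusted P = 0.0163). In batch 2 alone DUSP14 did not pass (0.22, adjusted P = 0.887).

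**Figure D3:**
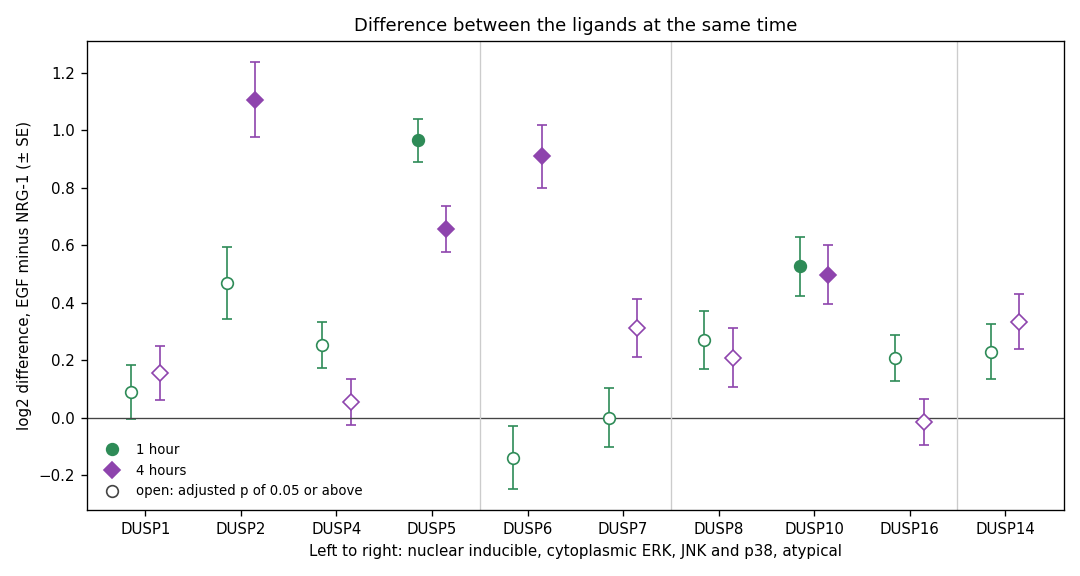
Log2 difference between EGF and NRG-1 (EGF minus NRG-1, with SE bars) for each member at 1 hour (circles) and 4 hours (diamonds), with open symbols for an adjusted P value of 0.05 or above. DUSP6 moved from −0.14 at 1 hour to 0.91 at 4 hours, and DUSP5 and DUSP10 were above 0 at both times.

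From 1 to 4 hours of EGF, DUSP6 was a higher DEG (1.05 ± 0.11, adjusted P = 4.09e-09), 1 member, against 4.83% of genes, and DUSP2 (−1.50 ± 0.13, adjusted P = 9.3e-11) and DUSP5 (−2.19 ± 0.08, adjusted P = 5.72e-19) were lower DEGs, 2 members, against 3.39%. Both cytoplasmic ERK phosphatases and DUSP14 rose, 3 of 10, against 22.5% of genes. There were 6 that fell, against 21.5%: DUSP1, DUSP2, DUSP5, DUSP8, DUSP10, and DUSP16. Of the 4 nuclear enzymes, DUSP4 was thus the one that did not fall (0.04 ± 0.08, adjusted P = 0.754). Without EGF 4 hours batch 1 replicate 1 or replicate 2, DUSP6 was no longer a DEG and 2 remained. From 1 to 4 hours of NRG-1, DUSP2 (−2.14 ± 0.13, adjusted P = 1.56e-13) and DUSP5 (−1.88 ± 0.08, adjusted P = 3.34e-17) were again the lower DEGs, 2 members, against 2.27%. DUSP4, DUSP7, and DUSP14 rose, 3 of 10, against 19.0%, and the same 6 genes fell, against 18.5%. DUSP6 did not pass (0.01 ± 0.11, adjusted P = 0.971). Batch 1 alone gave 4 and 2 DEGs in these 2 comparisons, and batch 2 alone gave 2 and 2.

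The difference between these 2 time courses was itself tested as an interaction of ligand and time. DUSP6 was the 1 member that passed and was a higher DEG, against 0.0235% of genes, with a change from 1 to 4 hours that was 1.05 ± 0.15 larger on the log2 scale with EGF than with NRG-1 (adjusted P = 0.000317). It was 1.22 in batch 1 alone (adjusted P = 9.38e-06) and 0.83 in batch 2 alone, where it did not pass (adjusted P = 0.572). The value was between 0.96 and 0.98, inside the fold limit, without EGF 4 hours batch 1 replicate 1, EGF 4 hours batch 1 replicate 2, or NRG-1 1 hour batch 2 replicate 2. For DUSP2 the interaction was 0.64 ± 0.18 (adjusted P = 0.168), and without EGF 1 hour batch 1 replicate 1 it was 0.77 (adjusted P = 0.0374). For DUSP5 it was −0.31 ± 0.11 (adjusted P = 0.453), with −0.51 in batch 1 alone (adjusted P = 0.0134) and −0.088 in batch 2 alone (adjusted P = 1).

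Summed over a class, the transcript per length of the nuclear enzymes was highest at 1 hour of either ligand, and that of the cytoplasmic enzymes at 4 hours of EGF. The sums mix unlike courses, as DUSP4 did not fall back by 4 hours and DUSP6 had already risen at 1 hour. The 4 nuclear enzymes summed to 31.3 ± 1.98 TPM in CSS (SD, n = 4), 160.6 ± 36.5 TPM after 1 hour and 64.4 ± 5.70 TPM after 4 hours of EGF, and 105.7 ± 15.5 and 43.6 ± 3.70 TPM with NRG-1. Their share of the transcript of all 10 members was 21.2% ± 0.397 in CSS, 41.4% ± 5.65 after 1 hour of EGF, and 24.3% ± 0.720 after 4 hours. The 2 cytoplasmic enzymes went from 11.1 ± 1.23 TPM in CSS to 19.0 ± 1.63 and 30.6 ± 2.71 TPM at 1 and 4 hours of EGF, and to 18.4 ± 2.48 and 20.7 ± 3.07 TPM with NRG-1. The libraries of the 2 NRG-1 times overlapped in this sum. The cytoplasmic share was 7.51% ± 0.486 in CSS, 4.98% ± 0.757 after 1 hour of EGF, and 11.6% ± 0.413 after 4 hours. With NRG-1 at 1 and 4 hours, the nuclear share was 37.5% ± 3.08 and 21.7% ± 0.542. The cytoplasmic share was then 6.52% ± 0.348 and 10.2% ± 0.685. DUSP14 alone held 26.0% ± 2.30 of the sum in CSS and 39.4% ± 1.90 after 4 hours of EGF. The 3 JNK and p38 enzymes were at 67.2 ± 7.65 TPM in CSS, 119.0 ± 9.24 and 65.0 ± 4.64 TPM at 1 and 4 hours of EGF, and 39.97 ± 9.92 TPM in FBS. All 10 members together summed to 148.0 ± 9.93 TPM in CSS, 118.6 ± 18.9 TPM in FBS, and 384.3 ± 36.6 TPM after 1 hour of EGF.

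**Figure D4:**
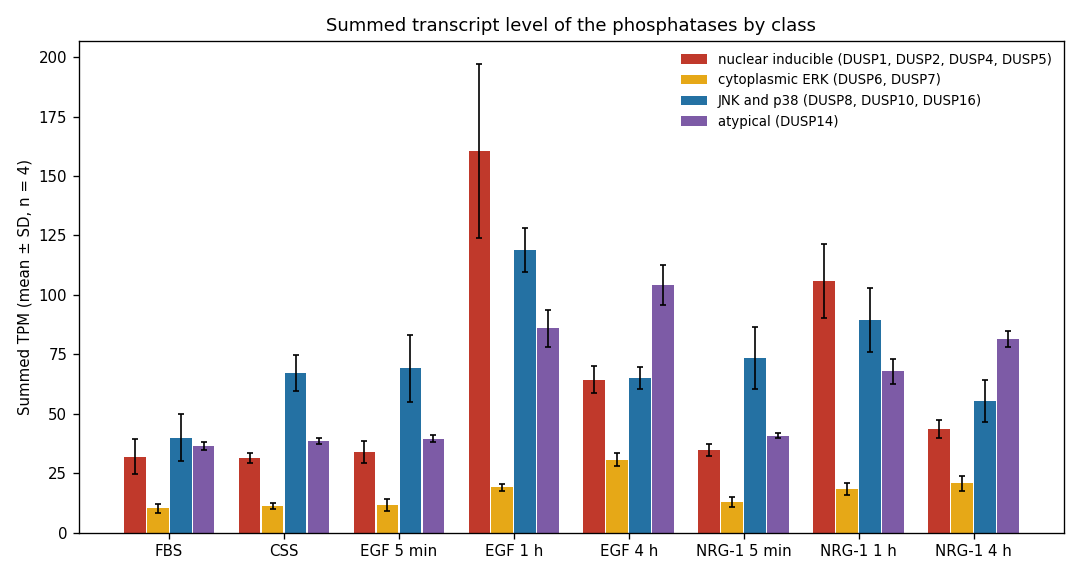
Summed TPM (bars, mean; lines, SD; n = 4 libraries) of the members of each class in the 8 groups. The nuclear inducible sum peaked at 160.6 TPM after 1 hour of EGF, and the cytoplasmic ERK sum was highest after 4 hours of EGF, at 30.6 TPM.

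The members differed in how closely they tracked one another over the 32 libraries. On log2 CPM with batch means removed, Pearson's r was 0.97 between DUSP5 and DUSP10, 0.96 between DUSP2 and DUSP5, and 0.95 between DUSP6 and DUSP14. DUSP8 and DUSP16 had r = 0.85 with each other. DUSP4 and DUSP16 had the lowest r, −0.54, and DUSP7 with DUSP16 had −0.42. These points share the 8 conditions, so the values describe the courses of the transcripts and no test was applied.

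**Figure D5:**
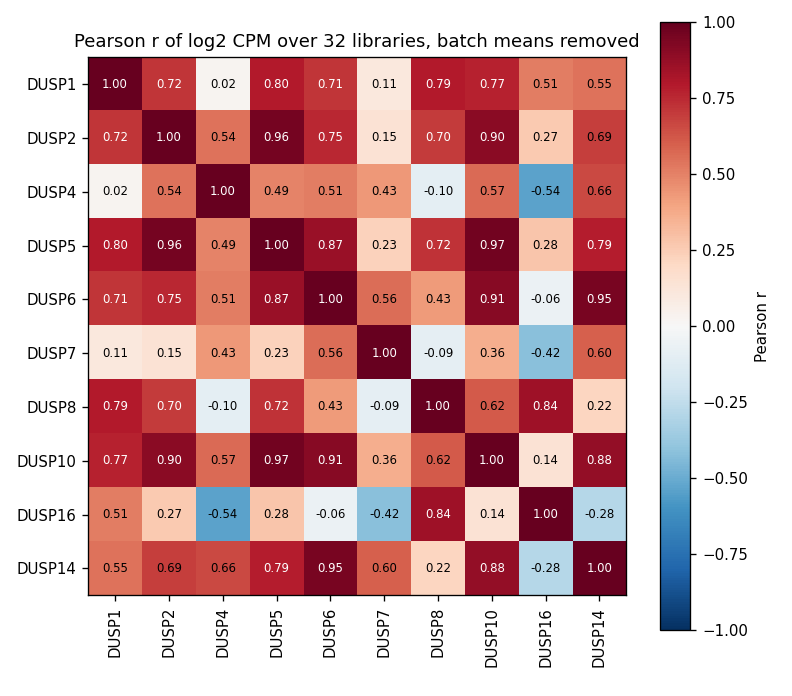
Heat map of Pearson's r between members over 32 libraries, on log2 CPM with batch means removed. DUSP2, DUSP5, and DUSP10 form a block with r of 0.90 to 0.97, and DUSP16 has negative r with DUSP4 (−0.54) and DUSP7 (−0.42).

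Among the 12019 genes whose mean log2 CPM reached 1, those whose course was most like that of each member were listed by the same measure over the 32 libraries. For DUSP5 they were CSRNP1, MYADM, and EGR2, each with r = 0.99. For DUSP2 they were KLF10, JMJD6, and EGR3 (r = 0.98, 0.98, and 0.97). The early growth response factors EGR2 and EGR3 are immediate early genes. For DUSP10 the nearest were HBEGF, which encodes another EGFR ligand, ARC, and MAP3K14 (r = 0.99, 0.98, and 0.98). For DUSP14 they were MMP10, CXCR4, and MMP1 (r = 0.98 each), which are 2 matrix metalloproteinases and a chemokine receptor. For DUSP6 they were ACTG1, PLK3, and ID2 (r = 0.98 each), for DUSP8 SIK1 and MEF2D (r = 0.97 each), for DUSP16 USP54, ANKRD13A, and MBD5 (r = 0.99, 0.98, and 0.98), and for DUSP7 TCF3, SLC25A22, and MIEF1 (r = 0.96 each). DUSP4 and DUSP1 had looser neighbors, with LYAR, LSM12, and ODC1 at 0.93 to 0.91 and WDR47, ZNF12, and CPEB4 at 0.91.

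The kinases that these enzymes act on, and the steps above them, are given by their counts, beside the shares over all genes. Against CSS, 6.00% of all genes rose and 3.51% fell with 1 hour of EGF, 4.45% and 2.28% with 1 hour of NRG-1, 24.6% and 24.6% with 4 hours of EGF, 21.6% and 21.0% with 4 hours of NRG-1, and 26.0% and 26.8% in FBS. DEGs were rarer. After 1 hour of EGF, 1.46% of all genes were higher and 0.265% lower DEGs, and for NRG-1 the shares were 0.806% and 0.182%. After 4 hours of EGF they were 5.86% and 3.70%, and for NRG-1 4.87% and 2.54%. The lists below hold 7 to 13 genes, too few to set a count of 0 or 1 DEG apart from such shares. Of 13 MAP kinases, 0 were DEGs at 1 or 4 hours of either ligand against CSS. By edgeR, 1 fell and 0 rose with 1 hour of EGF, 0 passed with 1 hour of NRG-1 (1 had an unadjusted P value below 0.05), 2 rose and 3 fell with 4 hours of EGF, and 3 rose and 3 fell with 4 hours of NRG-1. In FBS 3 rose and 4 fell. At the RAS and RAF level, 0 of 10 genes passed at 1 hour of either ligand (1 with EGF and 0 with NRG-1 had an unadjusted P value below 0.05), and none was a DEG at 4 hours, when 3 rose and 3 fell with EGF and 2 rose and 3 fell with NRG-1. In FBS 1 of these rose and 6 fell. Of 7 MAP kinase kinases, the 1 DEG at 4 hours of either ligand was MAP2K3, which activates p38. It went from 82.0 ± 6.71 CPM in CSS to 247.5 ± 18.7 CPM with EGF (1.60 ± 0.09, adjusted P = 8.01e-15) and 185.9 ± 19.7 CPM with NRG-1 (1.19 ± 0.09, adjusted P = 6.59e-12).

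Of 9 other feedback inhibitors of the pathway, 5 rose and 2 fell with 1 hour of either ligand, and 5 rose and 3 fell at 4 hours of either ligand. In FBS 1 rose and 4 fell. The same shares over all genes apply here, so that like counts at 1 and 4 hours stand against unlike backgrounds. SPRY2, a Sprouty inhibitor of receptor signaling, went from 1.43 ± 0.0868 CPM in CSS to 19.9 ± 0.883 CPM after 1 hour of EGF (3.80 ± 0.10, adjusted P = 4.37e-22) and was at 2.94 ± 0.404 CPM after 4 hours (1.04 ± 0.10, adjusted P = 1.01e-09). SPRY4, of the same family, was at 0.252 ± 0.0895 CPM in CSS, 2.18 ± 0.193 CPM after 1 hour, and 3.14 ± 0.369 CPM after 4 hours of NRG-1 (3.61 ± 0.21, adjusted P = 2.38e-14). SPRY1, named after its values were seen as the 1 lower DEG of this list at 1 hour of EGF, went from 3.73 ± 0.298 to 1.80 ± 0.379 CPM (−1.05 ± 0.13, adjusted P = 2.72e-07).

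Of 16 further dual-specificity family genes, 14 were tested. With EGF 2 rose and 0 fell at 1 hour and 2 rose and 2 fell at 4 hours, with NRG-1 1 rose and 0 fell at 1 hour and 3 rose and 2 fell at 4 hours, and in FBS 7 rose and 3 fell, against 26.0% and 26.8% of all genes. DUSP9 encodes another cytoplasmic ERK phosphatase and is not in the class sums above. It went from 1.31 ± 0.132 CPM in CSS to 5.08 ± 0.442 CPM after 4 hours of EGF (1.96 ± 0.17, adjusted P = 8.28e-11) and 5.34 ± 1.19 CPM after 4 hours of NRG-1 (2.04 ± 0.17, adjusted P = 5.79e-11). At 1 hour it was at 1.32 ± 0.299 and 1.11 ± 0.160 CPM (adjusted P = 0.986 and 0.596). DUSP21 was at 0.0314 ± 0.00990 CPM in CSS, too few counts for a fold, and at 0.492 ± 0.176 CPM after 4 hours of EGF (adjusted P = 1.2e-11). DUSP27, named after its values were seen as the 1 lower DEG of this list at 4 hours of either ligand, went from 7.77 ± 1.32 to 3.43 ± 0.849 CPM with EGF (−1.18 ± 0.16, adjusted P = 3.31e-07) and 3.66 ± 0.972 CPM with NRG-1 (−1.08 ± 0.16, adjusted P = 2.15e-06). Of 3 tyrosine phosphatases that act on MAP kinases, 2 were tested, and PTPRR was a higher DEG after 1 hour of EGF, at 41.6 ± 2.51 against 18.4 ± 3.28 CPM (1.20 ± 0.16, adjusted P = 1.26e-06). After 4 hours of EGF it was below CSS, at 10.6 ± 1.29 CPM (−0.79 ± 0.16 against CSS, adjusted P = 0.000154).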

How the data were processed

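PolyA RNA of 32 LNCaP libraries was sequenced. The submitters' processing notes name Trimmomatic 0.36, STAR 2.7.0f, RSEM, and build hg19. The authors deposited expected counts and TPM per gene from RSEM, for 25498 genes. Of the expected count values 11.2% were not whole, and all were rounded before testing. All columns matched a sample.

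A gene entered the test when 3 or more libraries held 5 or more counts of it, and testing was done in R 4.3.3 with the quasi-likelihood test of edgeR 4.0.16 (TMM scaling, group and batch as terms, all 32 libraries). The limits for a DEG were 0.05 on adjusted P and 1 on the absolute log2 fold change. Alternatives were DESeq2 1.42.0, limma 3.58.1 on log2(TPM + 1) or log2(TPM + 0.1), with genes under 0.5 TPM left out or kept, a minimum of 10 counts in every library, other scaling, a replicate block, each batch alone, and leaving out each library. Scripts were tested on simulated data. The labels give a shared batch and replicate number, and all 112 same-numbered pairs of libraries deviated together (r = 0.13 to 0.57). With batch means removed r was −0.15 to 0.37, and above 0.1 in 35 pairs. Replicates of a group differed by more than sampling noise (chi-square per degree of freedom 6.5 to 175 in the same batch).

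All 10 members were named, with the 2 largest called changes of each pathway list and the 3 genes most like each member (log2 CPM with a prior count of 2), except that a few of these genes are not reported here. The members and lists were chosen with earlier results of these data known.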

Additional observations from a re-analysis of the deposited data

Results flagged for a closer look

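Of 80 groups of 4 libraries (10 members in 8 groups), 4 held a library far from the other 3 by Dixon's test at the 95% level. Chance gives about 4 for independent groups, but the members share their libraries, so these groups were not independent. DUSP10 was at 43.6 CPM in EGF 1 hour batch 2 replicate 1. DUSP16 was at 110.1 CPM in EGF 5 minutes batch 2 replicate 2 and at 114.8 CPM in NRG-1 5 minutes batch 2 replicate 2. DUSP7 was at 21.41 CPM in NRG-1 4 hours batch 2 replicate 2. The flagged libraries other than that of DUSP10 were thus all batch 2 replicate 2, each the lowest of its group. Between the replicates of batch 2, chi-square per degree of freedom was 175 at EGF 5 minutes, 129 at NRG-1 5 minutes, and 122 at NRG-1 4 hours. It was 12.9, 6.5, and 16.3 between those of batch 1. The batch 2 value was also the larger in every other group, as at NRG-1 1 hour (144 against 20) and EGF 4 hours (82.7 against 6.6). What set these libraries apart was not tested. Between ligands, the change of DUSP6 from 1 to 4 hours was 1.05 larger on the log2 scale with EGF than with NRG-1 (interaction, edgeR, adjusted P = 0.000317).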

How the results depend on the processing

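Of 221 recomputed counts of member DEGs 192 stayed within 1.5 times the reported count, as did 137 of 144 that left out a library. Without the fold limit the counts were 8 (NRG-1 1 hour), 9 (NRG-1 4 hours), 7 (FBS), 2 and 4 (EGF against NRG-1 at 1 and 4 hours), 9 and 9 (4 against 1 hour of EGF and NRG-1), and, against FBS, 9, 9, 9, and 8. Limma on log2(TPM + 1), with or without the TPM filter, gave 3 for NRG-1 4 hours. Limma in its 3 forms gave 1 for FBS, 1 for EGF against NRG-1 at 1 hour, 0 for the interaction, and 8 for EGF 1 hour against FBS. Batch 1 alone gave 1 for FBS, 1 for EGF against NRG-1 at 1 hour, and 2 at 4 hours, and batch 2 alone gave 0 for the interaction. Leaving out 1 library gave 1 to 2 for FBS, 0 to 1 for EGF against NRG-1 at 1 hour, and 0 to 1 for the interaction. The fit with a replicate block gave the same member DEGs in every comparison, and among member values it changed only the 5 calls given with the comparison of EGF and NRG-1, where 3 were gained at 1 hour and 2 at 4 hours. The cause of these shifts was not tested.

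Of the member values, 1562 alternatives kept direction and call, 49 lost a call, 27 gained one, and 42 changed sign, each where neither value passed. In batch 1 alone these were DUSP7 with EGF 1 hour (−0.0048), DUSP1 with NRG-1 4 hours (−0.078), and DUSP7 between ligands at 1 hour (−0.16). In batch 2 alone they were DUSP8 with EGF 4 hours (0.11), DUSP1 between ligands at 1 and 4 hours (−0.081 and −0.038), DUSP16 between ligands at 4 hours (0.066), and the interactions of DUSP8 (0.017), DUSP10 (0.023), and DUSP14 (−0.011). With limma they were DUSP16 with NRG-1 1 hour (−0.027 and −0.028), DUSP7 in FBS (−0.11 and −0.12), DUSP14 in FBS (−0.070 and −0.071), and DUSP16 between ligands at 4 hours (0.012 and 0.013). DUSP7 between ligands at 1 hour was −0.00085 without the count filter and −0.0058 with only those groups fitted. Leaving out 1 library gave −0.15 to 0.011 for DUSP8 with EGF 4 hours, −0.012 to 0.081 for DUSP16 with NRG-1 1 hour, −0.079 to 0.078 for DUSP7 between ligands at 1 hour, −0.074 to 0.041 for DUSP16 between ligands at 4 hours, and, for the interaction, −0.023 to 0.16 (DUSP1), −0.15 to 0.035 (DUSP8), −0.15 to 0.056 (DUSP10), and −0.0033 to 0.19 (DUSP14). Depth limits DUSP6 in FBS, where counts were as low as 17.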
